A study of Rattus norvegicus with 8 samples.

Results

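The voltage-gated sodium and calcium channels of the rat hypothalamus are described here through their subunit genes. Members are the array probes whose gene name is Scn followed by a number and the letter a or b, or Cacna, Cacnb or Cacng followed by a number. That rule uses no measured value, and it took 52 of 30367 probes, for 40 of 26269 gene names. Hypothalamus samples came from Wistar rats nursing on postpartum day 7, 4 samples from control dams and 4 from dams exposed to TCDD. TCDD is a dioxin that binds and activates the aryl hydrocarbon receptor. The sources used here do not give the dose, route or time of exposure, the dams' age or any vehicle for the controls. Total RNA was labelled with Cy3 and hybridised to 1-colour Agilent Whole Rat Genome arrays, 1 array per sample. The 4 control arrays shared 1 slide and the 4 TCDD arrays another, so slide and group cannot be told apart.

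Voltage-gated sodium channels carry the rising phase of the action potential. Each consists of a large pore-forming alpha subunit and smaller beta subunits that tune its gating and its place on the membrane. Voltage-gated calcium channels turn depolarisation into calcium entry through an alpha1 subunit, which defines the P/Q, N, R, L or T type. High-voltage types add a cytoplasmic beta subunit and an extracellular alpha2delta subunit, both of which promote surface delivery, whereas T-type channels open near the resting potential and support burst firing. Most neural gamma subunits are better known as regulators of AMPA-type glutamate receptors. In the hypothalamus these channels shape the firing of neuroendocrine cells, among them the oxytocin neurons, which fire in bursts during suckling.

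The arrays were of similar quality. Between 61.7% and 66.7% of probes stood well above background on an array, and the correlation between arrays ran from 0.986 to 0.991 across probes. All 8 hypothalamic marker genes, such as Oxt and Pmch, and all 9 neuronal markers were well above background on all 8 arrays. The summed linear level of the neuronal markers, relative to the array's 75th percentile, was 139 to 159 on control and 137 to 153 on TCDD arrays. The 4 red blood cell markers summed to 134 to 316 on control and 206 to 360 on TCDD arrays. All 4 had a higher mean in TCDD dams, 3 of them at an unadjusted p under 0.05 in limma and 0 at an adjusted one. Of all genes tested, 7.25% were higher at an unadjusted p under 0.05. The 4 markers had a median log2 fold change of 0.80 (0.67 to 1.47), and their part in the channel values was not tested. In bulk tissue, fewer cells of a type and less RNA per cell cannot be told apart. The labels do not say whether a sample is 1 animal or a pool, so p-values measure the spread among these 4 and 4 samples, and that number of arrays limits the precision.

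Each probe is a DNA 60-mer, and the results below turn on a few of them. The GC content of the 52 member probes was 35.0% to 61.7%, with a median of 45%, as over the whole array. Probes of different channel genes shared runs of at most 10 bases, and at most 28 matched bases in any ungapped alignment, over 1314 pairs. The following are 30-base stretches, 5′ to 3′, of the probes for the T-type alpha1 genes Cacna1i and Cacna1h and the alpha2delta genes Cacna2d1 and Cacna2d2, the 4 genes at an unadjusted p under 0.05. Capitals mark bases that lie in the run of 43 bases shared by the 2 Cacna1i probes, its start in the upper line and its end in the lower line. In each line the first 30 bases are shown, except for A_64_P039842, where the last 30 are.
Cacna1i A_64_P017228: gctacccgctatcctccCGCCTGCCCCATC
Cacna1i A_64_P039842: AGGAGCCAGGGAGcagacagcaatactttg
Cacna1h A_64_P067366: gctcaacattcatttgacatccatttgctt
Cacna2d1 A_64_P093812: caatttatactcctttggctggtatctggc
Cacna2d2 A_64_P137630: agctggtgcagagaccgcgataccgaacag
In the array design's coordinates, on rat build rn4, the Cacna1i probes lie at chr7:118681461-118681520 and chr7:118681478-118681537 on the plus strand. The Cacna1h probe lies at chr10:14621473-14621532 on the minus strand, the Cacna2d1 probe at chr4:15140270-15140329 on the minus strand and the Cacna2d2 probe at chr8:112775143-112775202 on the plus strand. As no annotation of that build was used here, the exon or UTR in which each probe lies is not stated. The 2 Cacna1i probes read nearly the same stretch of RNA and are not independent measurements.

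Most channel subunit genes were detected in this tissue, detected or above background meaning well above background by the scanner software's call. By the better of a gene's probes, 31 of 40 genes stood well above background on all 8 arrays, 5 on some and 4 on none. By probe, 71.2% of the channel probes (37 of 52) were well above background on all 8 arrays, against 60.3% of all probes. The sodium channel beta subunits Scn2b, Scn3b and Scn4b, all 3 P/Q-, N- and R-type alpha1 subunits, all 3 T-type alpha1 subunits and all 4 calcium channel beta subunits were detected on every array. Of the 9 sodium channel alpha genes described here, 7 were, Scn4a of skeletal muscle and Scn10a of sensory neurons being the exceptions. The genes well above background on no array were Cacna1f, the retinal L-type alpha1 subunit, Cacna2d4, a retinal alpha2delta subunit, Cacng1, the gamma subunit of skeletal muscle, and Cacng5. The others detected on only some arrays were Cacna1d, on 5 arrays, Cacng4, on 7, and Cacng6, on 1. TCDD replicate 1 had the fewest channel probes above background, 37, against 41 to 45 on the other arrays, and the lowest share of all probes.

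**Figure D1:**
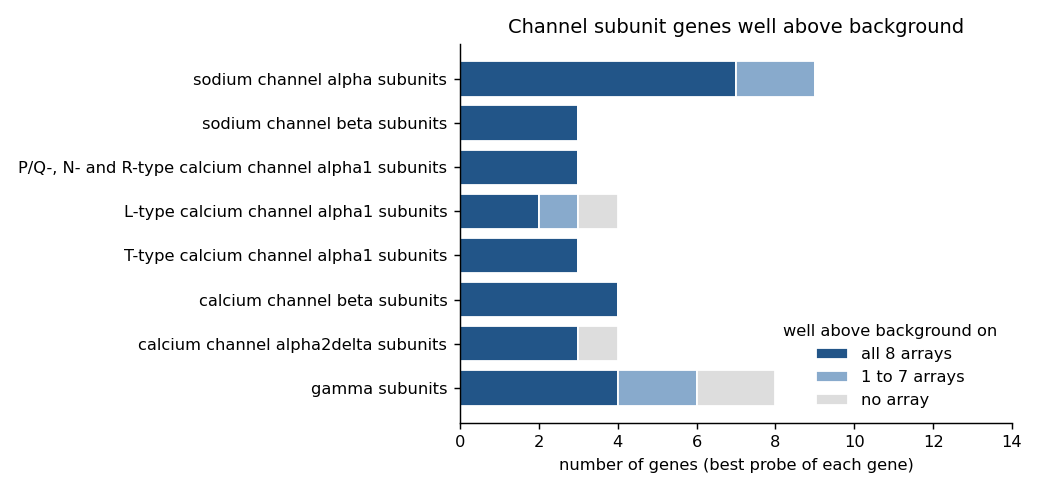
Number of channel subunit genes (x axis, 38 of the 40) in each class (y axis), by whether the gene's best probe was well above background on all 8 arrays, on 1 to 7 arrays or on none. The sodium channel beta, P/Q-, N- and R-type, T-type and calcium channel beta classes were detected in full, and the 4 genes seen on no array belong to the L-type, alpha2delta and gamma classes.

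Signals below are log2 of the processed spot intensity minus the array's 75th percentile, listed from replicate 1 to replicate 4 of each group, and log2 fold changes, from limma, are the TCDD mean minus the control mean. A negative signal means only that a probe was dimmer than that percentile, and the levels of different probes are not ranked against each other. The test took genes with a probe clearly above background on every array of the control or the TCDD group, or of both, and these were 32 of the 40 channel genes.

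No channel gene passed the test across the array, and the 4 with the smallest p belonged to the T-type and alpha2delta classes. Cacna1i, a T-type alpha1 subunit, was 1.39-fold as high in TCDD dams, and Cacna1h, another T-type subunit, was lower by 0.39 on the log2 scale. Cacna2d1 and Cacna2d2, both alpha2delta subunits, were lower by 0.19 and 0.38. Of the 32 genes, 10 lay higher and 22 lower in TCDD dams, or 68.8% lower, against 53.9% of all genes tested. Limma called 0 of them in either direction at an adjusted p under 0.05. Over all 16574 genes tested, 0.0181% were called higher and 0% lower. At an unadjusted p under 0.05 limma put 1 channel gene higher and 3 lower, or 12.5%, where 7.25% of all genes were higher and 3.74% lower, 11% in either direction. By the probe tested for each gene, the groups did not overlap for 2 channel genes, Cacna1i, with TCDD higher, and Cacna2d1, with TCDD lower. That is 6.25%, against 7.31% of all genes, 4.83% with TCDD higher and 2.49% with TCDD lower. Among the 11383 tested genes that carry a symbol, as all channel genes do, 4618 lay higher and 6765 lower. At an unadjusted p under 0.05 in limma, 3.29% of them were higher and 4.35% lower, and 4.88% had groups that did not overlap. In either direction the share of channel genes at an unadjusted p under 0.05, from 4 genes, is near that of all genes tested. By direction the channel share is 3.13% higher and 9.38% lower, from 1 and 3 genes. Against it stand 7.25% and 3.74% of all genes tested, and 3.29% and 4.35% of genes with a symbol.

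The median log2 fold change of the 32 channel genes was -0.055, against -0.010 over all genes tested and -0.023 over tested genes with a symbol. The median absolute value was 0.086, against 0.076 and 0.070. The channel values ran from -0.39 to 0.48. The median SD within groups was 0.143 for the channel genes and 0.120 for all genes. The 95% interval of a channel gene's log2 fold change had a median half-width of 0.219, from 0.109 for Cacnb3 to 1.09 for Scn7a.

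**Figure D2:**
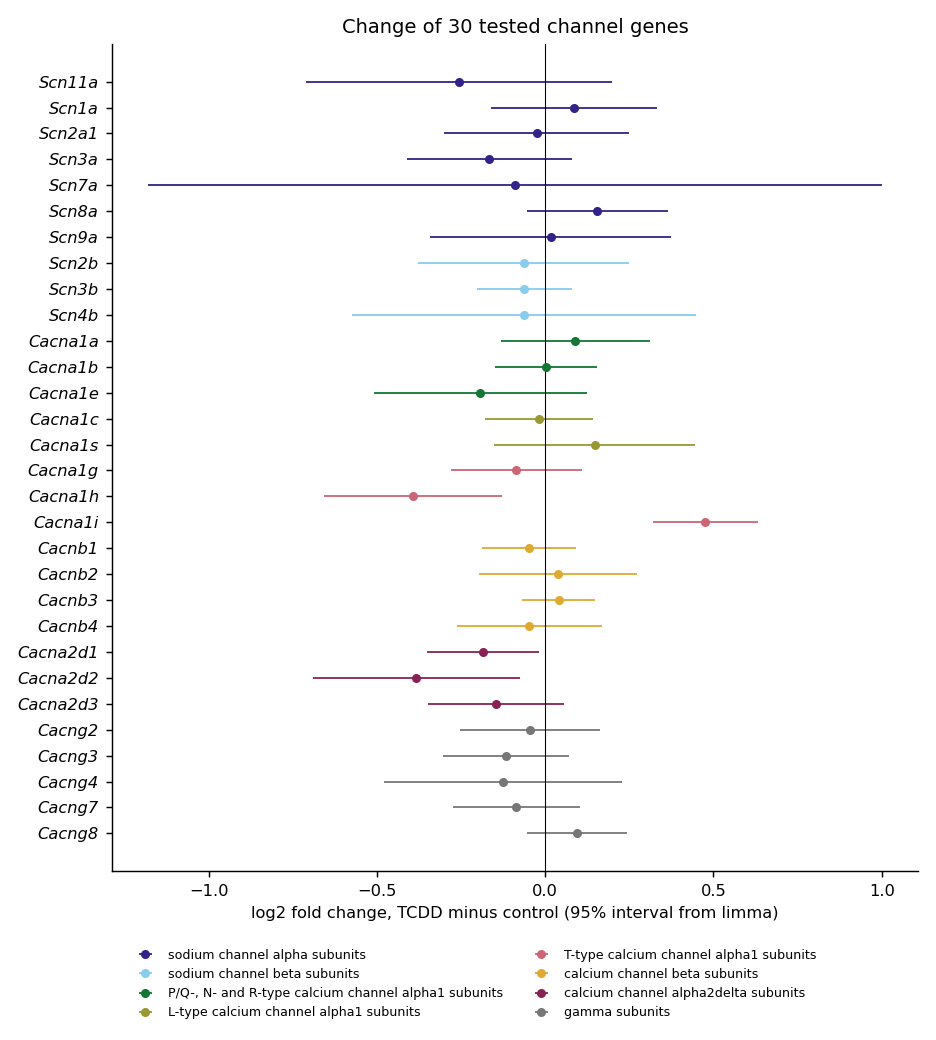
Log2 fold change, TCDD minus control, of 30 of the 32 tested channel genes (x axis) with its 95% interval from limma, coloured by class. Cacna1i at 0.48 lies to the right of 0, the intervals of Cacna1h, Cacna2d1 and Cacna2d2 lie to the left of it, and the other 26 intervals include 0.

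The alpha subunits of the brain sodium channels showed no called difference. Scn1a, the alpha subunit known for its role in inhibitory interneurons, gave 0.93, 0.86, 0.70 and 0.44 on control arrays and 0.87, 0.77, 0.74 and 0.90 on TCDD arrays. Control replicate 4 was the lowest array, and the groups overlapped. The TCDD mean exceeded the control mean by 0.09 on the log2 scale (SE 0.11, limma adjusted p = 0.83), and the difference was -0.01 without control replicate 4. Scn2a1, the type II alpha subunit now named Scn2a, which serves the axon initial segment of many excitatory neurons, gave 2.62, 2.49, 2.25 and 2.33 on control arrays and 2.58, 2.16, 2.30 and 2.55 on TCDD arrays. The values of the groups interleaved, with the highest array among the controls and the lowest among the TCDD arrays, and the log2 fold change was -0.03 (SE 0.12, limma adjusted p = 0.964).

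Scn3a, the type III alpha subunit, best known from the developing brain, gave -0.14, -0.24, -0.42 and -0.30 on control arrays and -0.29, -0.62, -0.61 and -0.24 on TCDD arrays. TCDD replicates 2 and 3 were the lowest arrays, and the other TCDD values lay within the control range (-0.17, SE 0.11, limma adjusted p = 0.642). Scn8a, the alpha subunit of mature initial segments and nodes of Ranvier, gave -2.03, -1.84, -2.04 and -2.07 on control arrays and -2.00, -1.94, -1.79 and -1.63 on TCDD arrays. TCDD replicates 3 and 4 lay above all control arrays and the other TCDD arrays among them. Its log2 fold change was 0.15 (SE 0.091, limma adjusted p = 0.612). Scn9a, the alpha subunit of nociceptors that is also found in hypothalamic neuroendocrine neurons, gave -1.0, -1.32, -0.90 and -0.67 on control arrays and -0.65, -0.94, -1.18 and -1.05 on TCDD arrays. The groups overlapped over nearly their whole range (0.02, SE 0.16, limma adjusted p = 0.987).

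Alpha subunits named for other tissues were also measured. Scn11a, a tetrodotoxin-resistant subunit of sensory neurons, had one of the 3 most negative log2 fold changes, at -0.26 (SE 0.20, limma adjusted p = 0.704). Its signals were -3.03, -3.32, -3.37 and -2.41 on control arrays and -3.24, -3.20, -3.45 and -3.27 on TCDD arrays, so control replicate 4 stood above the other 7 arrays, which lay between -3.45 and -3.03. Without control replicate 4 the log2 fold change was -0.05. Scn10a exceeded background clearly on only 3 arrays of each group and was not tested.

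Scn7a, the atypical sodium channel of glia and of the salt-sensing circumventricular organs, varied more between arrays than any other tested channel gene. It is outside the rule for named genes and was chosen after its values were seen. Its signals were -2.64, -2.55, -2.51 and -0.82 on control arrays and -2.92, -1.48, -2.65 and -1.82 on TCDD arrays. Control replicate 4 and TCDD replicates 2 and 4 were the high arrays, so the variation ran within both groups, with SDs of 0.876 and 0.678. The array carries 10 spots of this probe, and the SD between spots of 1 array was 0.048 to 0.134. The groups differed by -0.09 on average (SE 0.47, limma adjusted p = 0.969). The second probe, A_64_P026716, was above background on control replicate 4 and TCDD replicates 2, 3 and 4, at -4.04, -4.22, -4.86 and -4.72.

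The same 3 arrays were the brightest for Cga, which encodes the alpha subunit of the pituitary glycoprotein hormones, with 5.59 for that control array and 5.90 and 5.29 for the TCDD arrays. The other arrays were at 1.69 or below. Tshb, the thyrotropin beta subunit, was at 2.32, 2.65 and 2.31 on those arrays and at -1.25 or below on the others, and Lhb, the luteinizing hormone beta subunit, was also highest on them, at -0.15, -0.38 and -0.67. The other pituitary hormone genes followed another set of arrays. Prl, which encodes prolactin, was above background on control replicate 2 and TCDD replicates 2, 3 and 4, at 0.42, 2.09, 2.53 and 2.57, and was at background on control replicate 4. Gh1, which encodes growth hormone, was above background on the same 4 arrays as Prl, at -3.66, -2.54, -2.08 and -1.63. Over the 6 pituitary markers, 2 were above background on all 8 arrays and Pou1f1, a transcription factor that defines several pituitary cell types, on none. Their summed level was 1.93 to 54.1 on control and 3.91 to 71.4 on TCDD arrays, and its part in the Scn7a values was not tested.

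Scn4a, the alpha subunit of skeletal muscle, was above background on TCDD replicates 2 and 4 alone, at -3.41 and -4.86. No control array, control replicate 4 included, was above background. With the dim arrays of the control group raised to the lowest signal well above background, the TCDD mean over all 4 arrays came out 1.28-fold higher. That mean includes TCDD replicates 1 and 3, which were not above background, at -7.44 and -5.89. The fold is therefore no lower bound. Without the filter limma gave an adjusted p of 0.731. Of the 6 striated muscle markers 3 were above background on all 8 arrays and Ckm, muscle creatine kinase, on none. Their summed level was 1.92 to 2.16 on control and 1.73 to 2.28 on TCDD arrays, and was lowest on TCDD replicate 2, where Scn4a was highest. The tested markers Myh6, Myh7 and Acta1 had control means of 0.25, -0.38 and -4.98, which weights the linear sum towards Myh6 and Myh7. Their log2 fold changes were -0.02, -0.02 and 0.29, with limma adjusted p-values of 0.950, 0.970 and 0.514. The sum therefore says little about Acta1, the one with a higher mean in TCDD dams. The part of muscle tissue in the Scn4a values was not tested.

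**Figure D3:**
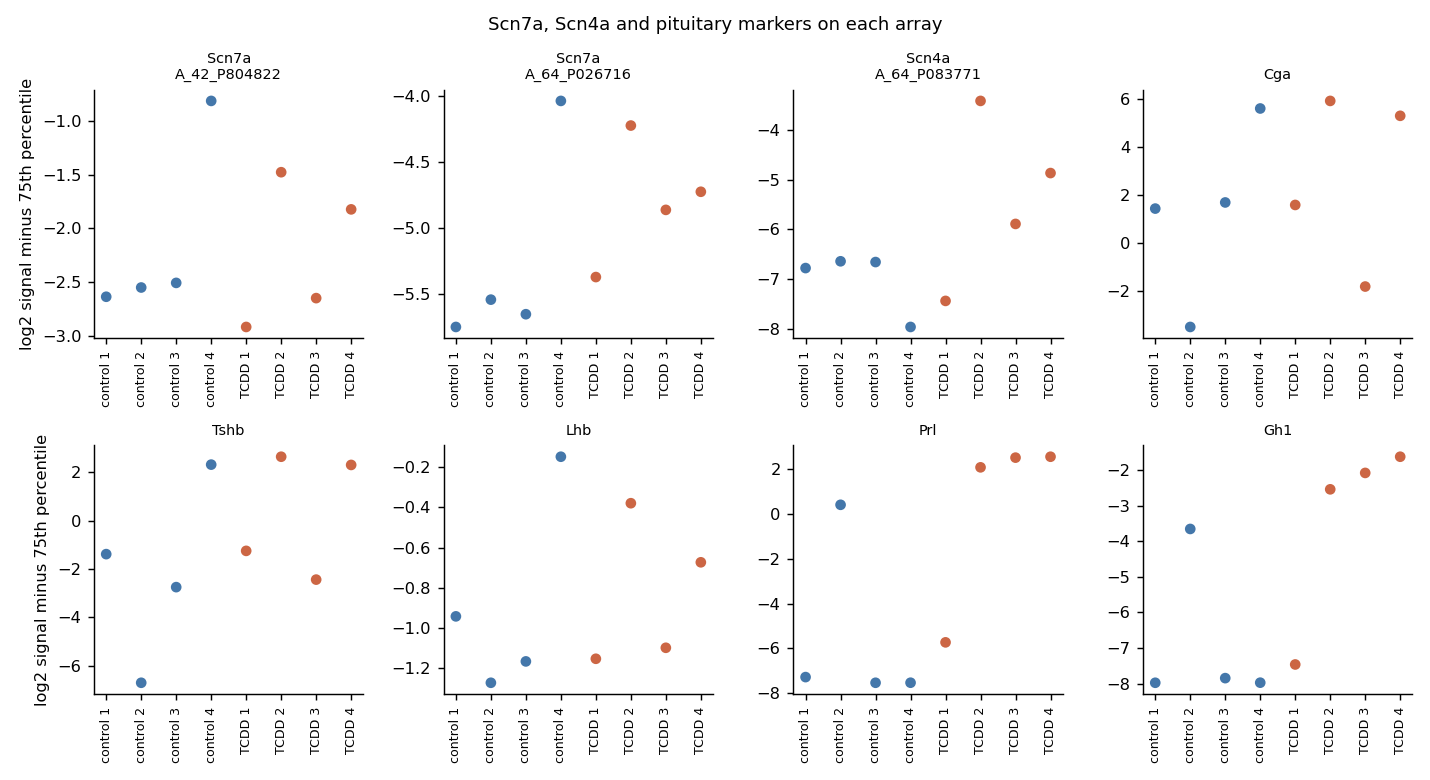
Log2 signal minus the array's 75th percentile (y axis) on each of the 8 arrays (x axis, control in blue and TCDD in orange) for both Scn7a probes, the Scn4a probe and the pituitary markers Cga, Tshb, Lhb, Prl and Gh1. The first Scn7a probe, Cga, Tshb and Lhb are highest on control replicate 4 and TCDD replicates 2 and 4, whereas Prl, Gh1 and Scn4a are at background on control replicate 4, and Prl and Gh1 are high on TCDD replicate 3.

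The sodium channel beta subunits Scn2b, Scn3b and Scn4b each had a log2 fold change of -0.06, with SEs of 0.061 to 0.22. Scn2b, a disulfide-linked subunit, gave -3.20, -3.34, -3.26 and -3.69 on control arrays and -3.58, -3.65, -3.21 and -3.31 on TCDD arrays, with overlapping groups (-0.06, SE 0.14, limma adjusted p = 0.916). Scn3b, a subunit without a disulfide link to its alpha subunit, gave 4.55, 4.51, 4.46 and 4.36 on control arrays and 4.41, 4.32, 4.42 and 4.48 on TCDD arrays. These arrays lay close together, and the interval of the difference ran from -0.20 to 0.08 (limma adjusted p = 0.773).

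Scn4b, the subunit known for its part in resurgent sodium current, gave 0.11, 0.02, -0.46 and -0.78 on control arrays and -0.39, 0.09, -0.56 and -0.50 on TCDD arrays. Control replicates 1 and 2 and TCDD replicate 2 lay at 0.02 or above and the other arrays at -0.39 or below, so both groups held high and low arrays. The SDs of 0.418 and 0.296 exceeded the SD between the 10 spots of 1 array, 0.038 to 0.121. Between the groups the log2 fold change was -0.06 (SE 0.22, limma adjusted p = 0.952). The sign of Scn2b and Scn4b turned when single arrays were left out.

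Among the high-voltage calcium channels of nerve terminals, no difference was called. Cacna1a, the P/Q-type alpha1 subunit that triggers fast transmitter release, gave -1.77, -1.50, -1.56 and -1.72 on control arrays and -1.77, -1.51, -1.53 and -1.38 on TCDD arrays. TCDD replicate 4 was the highest array and the other TCDD values lay within the control range (0.09, SE 0.097, limma adjusted p = 0.792). Its second probe was above background on TCDD replicates 2 and 4 alone, with a TCDD mean under the background floor, so no fold is given. Cacna1b, the N-type alpha1 subunit and target of omega-conotoxin, gave 0.77, 0.90, 0.90 and 0.92 on control arrays and 0.89, 0.75, 0.88 and 0.99 on TCDD arrays. The difference was 0.00 at 2 decimals (SE 0.066, limma adjusted p = 0.996), with an interval from -0.15 to 0.15. Its dimmer probe, A_64_P399288, spread from -4.97 to -3.35 over the TCDD arrays and gave a log2 fold change of 0.31. Cacna1e, the R-type alpha1 subunit, gave -3.92, -3.27, -3.64 and -3.57 on control arrays and -3.82, -3.99, -3.65 and -3.71 on TCDD arrays. Control replicate 2 was the highest array, and the groups overlapped (-0.19, SE 0.14, limma adjusted p = 0.673), with -0.13 by the second probe.

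The L-type alpha1 subunits, the targets of dihydropyridines, couple depolarisation to gene expression and to slow firing. Cacna1c, the main L-type subunit of brain and heart, gave -1.88, -1.87, -1.92 and -1.97 on control arrays and -2.02, -1.99, -1.95 and -1.74 on TCDD arrays. Its arrays lay close together, and the difference had an interval from -0.18 to 0.14 (-0.02, SE 0.070, limma adjusted p = 0.955). Cacna1d, the L-type subunit that supports pacemaking, gave -5.14, -5.24, -4.78 and -5.25 on control arrays and -5.31, -5.68, -5.09 and -4.90 on TCDD arrays. It was above background on 3 control and 2 TCDD arrays only and was not tested. Cacna1s, the alpha1 subunit of skeletal muscle, was above background on every array and gave -3.37, -3.32, -3.62 and -3.66 on control arrays and -3.06, -3.37, -3.33 and -3.62 on TCDD arrays. TCDD replicate 1 was the highest array, and the groups overlapped (0.15, SE 0.13, limma adjusted p = 0.742), one of the 3 most positive differences of the channel genes. With normexp background correction the log2 fold change of Cacna1s was 0.03. The array design gives no genome position for its only probe.

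The 3 T-type alpha1 subunits had differences of both signs. Cacna1i, the T-type subunit with the slowest kinetics, known from the thalamus and other forebrain nuclei, gave 0.54, 0.55, 0.67 and 0.74 on control arrays and 1.17, 1.08, 1.16 and 0.99 on TCDD arrays. Every TCDD array was above every control array, with a gap from 0.74 to 0.99. The log2 fold change was 0.48 (SE 0.068, 95% interval 0.32 to 0.63), 39.0% higher in TCDD dams, with an unadjusted p of 1.0e-04 and an adjusted p of 0.0575 from limma. It did not pass the threshold. The overlapping second probe gave -0.93, -0.74, -0.56 and -0.74 on control and -0.33, -0.43, -0.30 and -0.34 on TCDD arrays. Again the groups did not overlap, and the log2 fold change was 0.40 (SE 0.080, limma over single probes, adjusted p = 0.144).

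Cacna1h, the T-type subunit that is blocked by low nickel, gave -0.64, -1.05, -0.90 and -0.62 on control arrays and -1.0, -1.30, -1.30 and -1.18 on TCDD arrays. TCDD replicates 2, 3 and 4 lay under all control arrays, and TCDD replicate 1 lay within the control range. Its log2 fold change was -0.39 (SE 0.12, 95% interval -0.66 to -0.13, limma adjusted p = 0.260). Cacna1g, the T-type subunit of thalamic relay neurons, gave -0.57, -0.47, -0.47 and -0.66 on control arrays and -0.76, -0.74, -0.53 and -0.47 on TCDD arrays. TCDD replicates 1 and 2 were the lowest arrays and TCDD replicates 3 and 4 lay within the control range (-0.09, SE 0.084, limma adjusted p = 0.773), with -0.18 by the second probe.

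**Figure D4:**
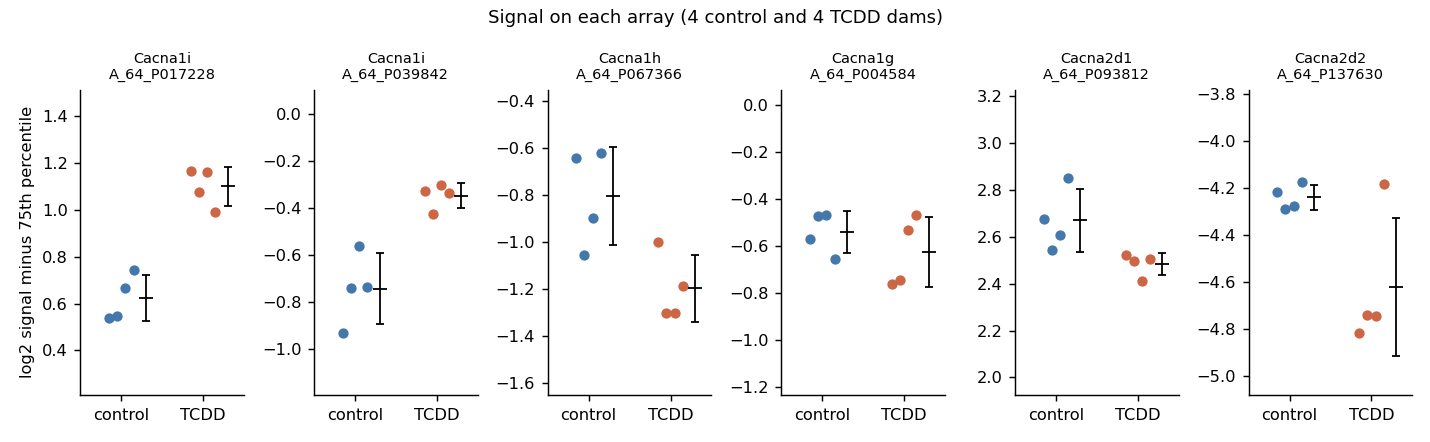
Log2 signal minus the array's 75th percentile (y axis, the same span in every panel) on the 4 control and 4 TCDD arrays (points), with mean and SD, for both Cacna1i probes, Cacna1h, Cacna1g, Cacna2d1 and Cacna2d2. The groups are apart for both Cacna1i probes and for Cacna2d1, and 1 TCDD array of Cacna2d2 lies at the control level.

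The difference between 2 probes on the same array does not depend on the scaling of that array, and it was compared between groups for the 3 pairs of T-type genes, chosen after their values were seen. The Cacna1i signal minus that of Cacna1h was 1.18, 1.60, 1.56 and 1.36 on control arrays (mean 1.43 ± 0.19, SD, n = 4). It was 2.16, 2.38, 2.46 and 2.17 on TCDD arrays (mean 2.29 ± 0.15, SD, n = 4). Every TCDD array was higher, by 0.87 on average (2-sided exact permutation p = 0.0286, the smallest that 70 assignments can give, 0.0429 adjusted over the 3 pairs). For Cacna1i minus Cacna1g the means were 1.16 and 1.72, a difference of 0.56, also with no overlap (exact permutation p = 0.0286, adjusted 0.0429). For Cacna1h minus Cacna1g the difference was -0.31, with overlap (exact permutation p = 0.2). The Cacna1i groups had already been seen not to overlap, and Cacna1i and Cacna1h to differ in opposite directions. These p-values, adjusted ones included, therefore describe the arrays and are no independent evidence.

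Thalamic tissue borders the hypothalamus, and thalamic markers were read beside the T-type genes. Of 6 markers, such as Tcf7l2, 5 were above background on all 8 arrays, and all 5 tested ones had a higher mean in TCDD dams, with a median log2 fold change of 0.23 and 0 at an unadjusted p under 0.05 in limma. The summed level was 2.31 to 4.62 on control and 2.58 to 4.72 on TCDD arrays. From replicate 1 to 4 it was 2.39, 4.62, 4.42 and 2.31 on control arrays, where Cacna1i was at 0.54, 0.55, 0.67 and 0.74. On TCDD arrays it was 2.58, 4.51, 4.72 and 3.75, where Cacna1i was at 1.17, 1.08, 1.16 and 0.99. The part of thalamic tissue in the Cacna1i difference was not tested.

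The Cacna1i difference kept its direction under all 20 alternative settings, and its adjusted p lay on both sides of the threshold. The limma adjusted p was 0.0496 when genes had to be above background on all 8 arrays, 0.0372 with an intensity trend in the variance model and 0.0327 with array weights. Under the other alternatives it ran up to 0.227, the value without control replicate 2. The log2 fold change ran from 0.40, with normexp background correction, to 0.51, without control replicate 4. For Cacna1h the log2 fold change ran from -0.48 to -0.33 over the same settings and the adjusted p from 0.140 to 0.506.

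**Figure D5:**
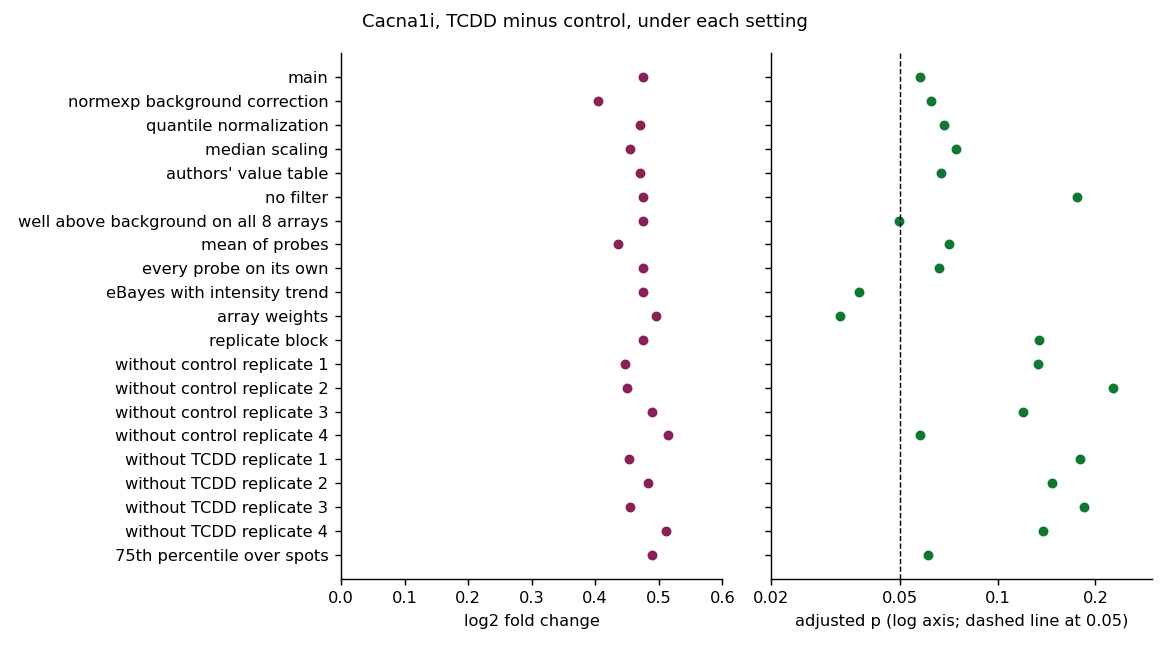
Log2 fold change (left, x axis) and adjusted p (right, log axis, dashed line at 0.05) of Cacna1i under the main setting and each alternative (y axis). The log2 fold change stays between 0.40 and 0.51, and 3 alternatives, the filter on all 8 arrays, the intensity trend and array weights, lie left of the line.

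The alpha2delta subunits, which carry calcium channels to the terminal and bind gabapentin in the case of Cacna2d1 and Cacna2d2, had a lower mean in TCDD dams for each of the 3 tested genes. Cacna2d1 gave 2.68, 2.54, 2.61 and 2.85 on control arrays and 2.52, 2.49, 2.41 and 2.51 on TCDD arrays. Every TCDD array lay under every control array, and the nearest values were 2.52 and 2.54. The log2 fold change was -0.19 (SE 0.073, 95% interval -0.35 to -0.02, unadjusted p = 0.0333, limma adjusted p = 0.392). Cacna2d2, a subunit of Purkinje cells and inhibitory neurons, gave -4.22, -4.29, -4.28 and -4.18 on control arrays and -4.82, -4.74, -4.75 and -4.18 on TCDD arrays. On TCDD replicates 1 to 3 it was under all control arrays, and on TCDD replicate 4 it stood at the level of the highest control array. Its log2 fold change was -0.38 (SE 0.13, unadjusted p = 0.0207, limma adjusted p = 0.340). It was -0.53 (adjusted p = 0.0862) without TCDD replicate 4 and -0.18 (adjusted p = 0.706) with normexp background correction.

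Cacna2d3, the third alpha2delta subunit above background, gave -1.43, -1.41, -1.55 and -1.63 on control arrays and -1.45, -1.81, -1.64 and -1.71 on TCDD arrays. TCDD replicates 2, 3 and 4 were the lowest arrays, just under control replicate 4 (-0.15, SE 0.088, limma adjusted p = 0.623).

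The cytoplasmic beta subunits showed small differences, of both signs. Cacnb1, the beta subunit that muscle and brain share, gave 1.83, 1.87, 1.68 and 1.72 on control arrays and 1.82, 1.71, 1.70 and 1.68 on TCDD arrays. Cacnb3, a subunit of N-type channels in brain, gave 3.60, 3.55, 3.51 and 3.46 on control arrays and 3.54, 3.58, 3.57 and 3.59 on TCDD arrays, and had the smallest SE of any tested channel gene. Their log2 fold changes were -0.05 (SE 0.061) and 0.04 (SE 0.047), with limma adjusted p-values of 0.836 and 0.821. Cacnb2, the main cardiac beta subunit, gave -4.17, -3.94, -4.05 and -3.95 on control arrays and -3.84, -4.27, -3.92 and -3.93 on TCDD arrays, with TCDD replicates 1 and 2 at the ends of its range. Cacnb4, the subunit lost in the lethargic mouse, gave 0.37, 0.24, 0.29 and 0.09 on control arrays and 0.40, 0.02, 0.13 and 0.24 on TCDD arrays. The groups overlapped for both, at 0.04 (SE 0.10) and -0.05 (SE 0.094), with limma adjusted p-values of 0.930 and 0.907. The second Cacnb4 probe gave 0.09, and the second Cacnb1 probe -0.10 (SE 0.074, limma over single probes, adjusted p = 0.697). On that Cacnb1 probe every TCDD array lay under every control array, and the nearest values were -1.60 and -1.59.

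Of the 8 gamma genes 5 were tested, and 1 lay higher and 4 lower in TCDD dams, all with overlap. Cacng2, or stargazin, which carries AMPA receptors to the synapse, gave 3.36, 3.34, 3.20 and 3.00 on control arrays and 3.10, 3.12, 3.22 and 3.28 on TCDD arrays. Control replicates 1 and 2 were its highest arrays (-0.05, SE 0.090, limma adjusted p = 0.908). Cacng8, a regulator of the same receptors, gave -2.02, -1.90, -1.86 and -1.87 on control arrays and -1.86, -1.84, -1.89 and -1.68 on TCDD arrays. TCDD replicate 4 was the highest and control replicate 1 the lowest array (0.09, SE 0.065, limma adjusted p = 0.666). For the others the log2 fold changes were -0.12 for Cacng3, -0.13 for Cacng4 and -0.09 for Cacng7, with SEs of 0.082, 0.15 and 0.082 and limma adjusted p-values of 0.669, 0.826 and 0.765.

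Genes that act with the channels were read from 4 lists, and limma called 0 of their members at an adjusted p under 0.05. Among sodium channel partners, such as the ankyrins and the fibroblast growth factor homologous factors, 18 of 20 were tested, 8 higher and 10 lower, and their median log2 fold change was -0.02. Nrcam, a cell adhesion molecule of nodes and initial segments, was the 1 member at an unadjusted p under 0.05, at 0.23 (SE 0.089, limma adjusted p = 0.391). Among calcium channel partners, such as the RIM proteins and calmodulins, 21 of 26 were tested, 12 higher and 9 lower, with a median of 0.02. Camk2a, a calcium-activated kinase of synapses, stood at -0.20 (SE 0.073, limma adjusted p = 0.347) with no overlap.

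Among genes of calcium handling downstream of the channels, 20 of 24 were tested, 7 higher and 13 lower, with a median of -0.02. Pvalb, a calcium buffer of fast-spiking neurons, stood at 0.28 (SE 0.12, limma adjusted p = 0.442). Among other cation channels, 8 of 11 were tested, 2 higher and 6 lower, with a median of -0.05. Catsper2, a subunit of the sperm calcium channel, stood at -0.31 (SE 0.12, limma adjusted p = 0.400). In each list 1 member stood at an unadjusted p under 0.05, against 11% of all genes tested.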

How the data were processed

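Hypothalamic RNA samples, 4 from control and 4 from TCDD-exposed dams, were measured on 1 array each, and whether a sample is 1 dam or a pool is not given. Per the file headers, spot intensities are on a linear scale and come from Agilent Feature Extraction 10.7.1.1, which subtracts background, corrects spatial trends and writes a surrogate value for a spot not above background. The authors' deposited value table, of intensities that look quantile-normalized, served as an alternative. Its scale beyond that is not given in the sources used here.

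The 1377 control spots and spots marked as outliers were left out, spots of a probe were averaged, and log2 intensity was taken relative to the array's 75th percentile over probes. Surrogate values limit the differences that dim probes can show. Limma 3.58.1 (lmFit and eBayes, group as the only term, 2-sided) in R 4.3.3 tested 16574 genes, with 1 probe per gene, the one of highest mean signal among 19102 probes well above background on all 4 arrays of a group. P-values were Benjamini-Hochberg adjusted over all of them, with a threshold of 0.05. Within-array differences had an exact permutation test.

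On simulated data of 16571 genes with 200 changed, the test of TCDD against control recovered 67.2%, 91.0% and 95.5% of genes changed by 0.5, 1 and 2 on the log2 scale, with 13 false calls. Fewer true changes would lower these shares.

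The members, lists and tests were chosen with earlier results of these data known. Genes named with all values are those at an unadjusted p under 0.05, those whose groups do not overlap, the 3 largest differences each way and the main brain subunits by role. From the other lists, members at an unadjusted p under 0.05 are named. Of the 40 members, 2 enter the counts over all members but are not reported here by name. The 20 alternatives left out each array in turn or changed the background (normexp, offset 50), the scaling, the table, the filter, the choice of probe, the variance model or the array weights, and 1 took the replicate number as a block. Coordinates are those of the array design on rn4. All 40 genes matched RefSeq symbols (assembly GRCr8, names alone), and 1 was renamed. Figures were drawn with matplotlib 3.10.9 in Python 3.11.15.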

Additional observations from a re-analysis of the deposited data

Results flagged for a closer look

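Over 52 groups of 4 arrays, the 26 named genes in each condition, Dixon's ratio of an end value's gap to the whole range exceeded its 95% critical value in 2 groups. Chance alone gives such a value in about 1 of 20 groups. For Cacna2d2, the alpha2delta subunit, TCDD replicate 4 was the highest of its group, at a log2 signal of -4.18 with -4.74 the nearest, a ratio of 0.876. For Cacna1b, the N-type alpha1 subunit, control replicate 1 was the lowest, at 0.77 with 0.90 the nearest, a ratio of 0.840.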

How the results depend on the processing

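The count of channel genes called was 0 and stayed 0 except for 1 gene, Cacna1i, with the filter on all 8 arrays, with an intensity trend and with array weights; leaving out each array gave 0 to 0. The count over all genes, 3, was 22 with normexp, 0 with no filter, 28 with the filter on all 8 arrays, 34 with an intensity trend and 94 with array weights, and 0 to 6 with single arrays left out. Channel genes at an unadjusted p under 0.05 numbered 4, and 3 or 4 under the alternatives with 1 value per gene. The share of all genes moved more, so these counts are not a stable excess or deficit. It was 6.85% with normexp, where 4 of 32 channel genes stood under 0.05, and 14.3% with array weights, where 3 of 32 did. With every probe on its own, 6 of 39 channel probes stood under 0.05, against 10.8% of all 19102 probes tested. Both overlapping Cacna1i probes are among the 6 and are not independent. The gene count was 2 to 4 with an array left out, with 2 without TCDD replicate 2 and without TCDD replicate 3. Of all genes, 10.9% and 8.57% stood under 0.05 without these arrays. The median log2 fold change, -0.055, ran from -0.075 to -0.040 under the alternatives and from -0.083 to -0.028 with an array left out. The sign turned for Cacnb2 and Scn9a with normexp (-0.071 and -0.032), for Scn9a with median scaling (-0.0046), for Cacna1b with quantile normalization (-0.00077), median scaling (-0.018) and the authors' table (-0.0041), and for Cacnb4 with the mean of probes (0.023); the cause was not tested. With an array left out, values ran from -0.036 to 0.047 for Cacna1b, -0.080 to 0.012 for Cacna1c, -0.012 to 0.13 for Cacnb2, -0.12 to 0.010 for Cacnb4, -0.12 to 0.00088 for Cacng2, -0.012 to 0.15 for Scn1a, -0.087 to 0.053 for Scn2a1, -0.17 to 0.0059 for Scn2b, -0.23 to 0.066 for Scn4b and -0.10 to 0.12 for Scn9a. Of 26 named genes, 16 kept their sign under every alternative. The 75th percentile over spots, chosen after seeing the data, gave a median of -0.040.

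Same-numbered arrays deviated together at r of 0.228, -0.0031, -0.046 and 0.104, and 1 of 4 pairs correlated best with its own number, so the numbers were not taken to pair the arrays. With the replicate number as a block, 0 channel genes and 0 genes in all were called. At an unadjusted p under 0.05 in limma stood 4 channel genes, against 12.7% of all genes. The median stayed at -0.055, and Cacna1i had a limma adjusted p of 0.134.

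Dim probes limit what can be read: Cacna1d, Scn4a, Scn10a and 5 other channel genes were not tested, and normexp moved the log2 fold change of Cacna2d2 by more than its SE.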

Other observations

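Several channel genes lie side by side in the rat genome, by the array design's rn4 probe positions. On chromosome 3 the probes for Scn3a, Scn2a1, Scn1a, Scn9a and Scn7a lie between 47496786 and 48634798, and their log2 fold changes, TCDD minus control, were -0.17, -0.03, 0.09, 0.02 and -0.09. On chromosome 8 the probes for Scn10a and Scn11a lie between 124578227 and 124724553, and the tested Scn11a stood at -0.26. Among the gamma genes, the probes for Cacng6, Cacng8 and Cacng7 lie on chromosome 1 between 64051888 and 64114323, and those for Cacng1, Cacng4 and Cacng5 on chromosome 10 between 97105708 and 97300849. In the first of these groups Cacng7 and Cacng8 were above background on all 8 arrays. In the second group none was, and Cacng4 was above background on 7 arrays. The sodium channel beta genes Scn2b and Scn4b lie on chromosome 8 at 48078455 and 48106487, and both stood at -0.06.

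In the other lists, the groups did not overlap for 0 of 18 tested sodium channel partners and 1 of 21 calcium channel partners. The same held for 1 of 20 calcium handling genes and 1 of 8 other cation channels, against 7.31% of all genes tested. Outside the named genes, 2 of these list members had groups that did not overlap without reaching an unadjusted p under 0.05 in limma. Hcn4, a pacemaker channel, was higher in TCDD dams by 0.39 (SE 0.21, adjusted p = 0.565), and Atp2a2, the calcium pump of the endoplasmic reticulum, stood at -0.07 (SE 0.047, adjusted p = 0.649). Both were chosen after their values were seen.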
